A study of Mus musculus with 67 samples.

Results

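The comparison set the trophectoderm (TE) of mouse embryos at embryonic day (E) 4.5 against the epiblast (Epi) of the same age, across all genes of the deposited expression table. Its members were the 3 TE and the 3 Epi libraries labelled E4.5, which are 6 of the 67 libraries of the series. TE is the outer epithelium of the blastocyst and Epi the inner lineage that later forms the fetus. All samples in the comparison are labelled wild type, and the design text adds that the mouse line carried EGFP under the Pdgfra promoter as an aid to isolating lineages, without saying which libraries came from it. Per the labels' protocols, embryos came from natural mating, the implanting ones were dissected out of the decidua, and tissue was separated with trypsin. Each library was made from about 10 to 100 cells with the Smart-seq2 method, which copies polyadenylated RNA, with 17 cycles of PCR, and each group held 3 biological replicates. The p-values therefore measure the spread among 3 small pools per group. The design text of the series names TE at E3.5 only, so the TE samples at E4.5 are known here from their own labels, which do not say whether polar TE, mural TE or both were taken. TE (3 libraries) and inner cell mass (ICM, 3 libraries) of E3.5 blastocysts served as the comparison a day earlier, and primitive endoderm (PrE, 3 libraries) at E4.5 gave levels in the remaining lineage of the implanting embryo.

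As background, the first lineage choice of the mouse embryo separates TE from ICM. Outer cells polarize, the Hippo pathway is turned off in them, and nuclear YAP with TEAD4 turns on Cdx2 and Gata3, while inner cells keep the pluripotency factors Oct4 (Pou5f1), Sox2 and Nanog. TE builds a sealed, keratin-rich epithelium that pumps ions and water into the blastocyst cavity, attaches to the uterus and gives rise to the placenta. Polar TE, which touches the epiblast, goes on dividing under FGF4 signals, and mural TE turns into giant cells.

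The 6 libraries differed in more than lineage labels. Values are in TPM, a length-scaled share of all transcripts in a library, recomputed to a sum of 1000000 after Rn45s, the ribosomal RNA precursor, was dropped. Rn45s had taken between 0.1004% and 0.107% of the TE columns, against 18.6% to 24.8% of the Epi columns, and 15.1% to 20.8% in PrE. Between 9048 and 9115 genes reached 1 TPM in TE, against 9679 to 14059 in Epi. The library Epi replicate 1 stood apart, with 3307 genes listed at 0 against 13659 and 12723 in the other Epi libraries, and with 7639 genes between 0 and 1 TPM against 1667 and 1482. Replicates correlated at Pearson's r of 0.990 to 0.991 within TE and 0.893 to 0.916 within Epi across genes, and at 0.698 to 0.735 between TE and Epi libraries. The median SD of a gene was 0.156 on the log2 scale in TE and 0.501 in Epi. Sequencing depth cannot be read from TPM.

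The markers Krt18 and Nanog fitted the lineage labels in all 6 libraries. Krt18, a keratin of simple epithelia and the marker of TE here (chromosome 15, 102028180 to 102032027 of GRCm38), stood at 6465, 6504 and 7152 TPM in TE and 419, 468 and 402 TPM in Epi. Every TE library lay above every Epi library, by 3.96 ± 0.09 (SE) on the log2(TPM + 1) scale, with an adjusted p of 4.95e-08 from limma's moderated test over all genes. Krt18 has processed copies in the genome, so its reads may be split among near-identical loci. In pooled cells, fewer cells of a type and less RNA of a gene per cell cannot be told apart, and this holds for the Krt18 level in Epi as for every level below. Nanog, the homeobox factor that marks Epi (chromosome 6, 122707489 to 122714633), stood at 0.647, 1.17 and 0.566 TPM in TE and 391, 247 and 329 TPM in Epi. The groups did not overlap, and the difference was -7.48 ± 0.26 with an adjusted p of 2.27e-07. In PrE libraries Krt18 stood at 57.7, 78.7 and 57.9 TPM and Nanog was listed at 0 in all 3.

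Summed over whole marker lists, the 16 trophectoderm genes reached 15020 to 16318 TPM in TE, against 1325 to 1494 TPM in Epi. The 11 core pluripotency genes summed to 248 to 259 TPM in TE and 4401 to 5529 TPM in Epi. The 16 naive pluripotency genes went the other way, at 25045 to 27151 TPM in TE and 12543 to 14600 TPM in Epi. Dppa5a alone held 24120 to 26260 TPM of that in TE and 9835 to 11967 TPM in Epi. The 12 mural and giant cell genes were close, at 178 to 198 TPM in TE and 156 to 187 TPM in Epi. The 20 primitive endoderm genes summed to 88.6 to 93.6 TPM in TE and 224 to 265 TPM in Epi, where PrE libraries reached 10666 to 11722 TPM. All 7 uterine stroma genes and all 5 blood genes in the table fell below the filter on low values, with sums of 0.558 to 0.801 TPM (stroma) and 0.971 to 2.46 TPM (blood) in TE, against 1.45 to 8.88 TPM and 0.285 to 5.32 TPM in Epi. Of the 6 uterine epithelium markers, 2 passed the filter and both were higher in TE in both scalings, and their part in other differences was not tested. Ltf, Wnt7a and Sprr2f, of the same list, were listed at 0 in all 3 TE libraries. Muc1, a membrane mucin on that list, fell below the filter, at 0, 0.413 and 0.219 TPM in TE and 8.61, 0.256 and 0 TPM in Epi. Msx1, a homeobox factor on that list, was higher in TE at 12.7, 11.8 and 13.7 TPM in TE and 5.44, 0 and 5.95 TPM in Epi, with an adjusted p of 0.0419, and this call was lost without any one of the TE libraries (adjusted p of 0.097, 0.087 and 0.1 without replicate 1, 2 and 3).

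**Figure D1:**
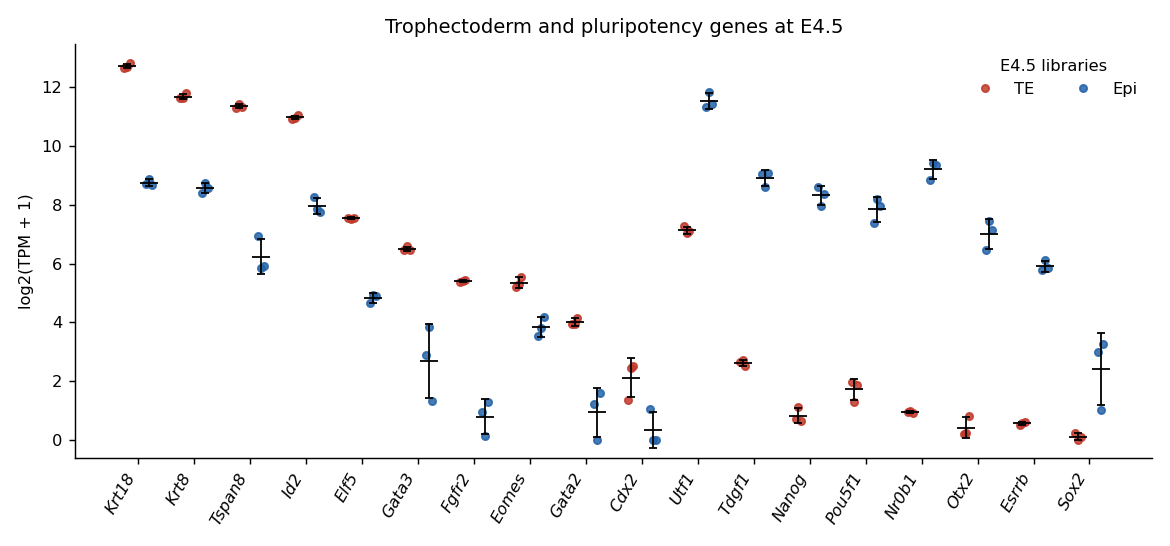
Levels of 18 lineage and signalling genes, as log2(TPM + 1), in the 3 TE (left of each pair) and 3 Epi libraries (right) at E4.5. Points are libraries, and bars give mean ± SD. Krt18, Krt8, Gata3 and Elf5 lie higher in TE, and Nanog, Pou5f1 and Tdgf1 lie lower in TE, with no overlap in any of these 7.

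Of 10332 genes with at least 1 TPM in at least 3 of the 6 libraries, 1248 (12.1%) were higher in TE and 4203 (40.7%) were lower, at an adjusted p under 0.05 and a log2 difference of at least 1. The genes that were not called numbered 4881. The median gene stood at -0.78 on the log2 scale, so the whole distribution was shifted toward Epi, and differences are best read against that value. After scaling by the median ratio over genes, which moved the median to 0.1, 2713 genes were higher (26.1%) and 2429 lower (23.3%), and higher genes made up 52.8% of the calls against 22.9% on the TPM scale. Quantile normalization gave 2603 higher (25.2%) and 2499 lower (24.2%), and higher genes made up 51.0% of the calls. Calls in either direction covered 52.8% of the genes on the TPM scale and 49.4% after either normalization. All 1248 higher calls and 2429 of the 4203 lower calls (12.1% and 23.5% of the genes tested) held in both the TPM and the median-ratio scaling. Of the other lower calls, 1660 were not called by the median ratio and 114 were not tested there. No call changed its direction. Of the genes tested, 136 were listed at 0 in all 3 TE libraries and 34 in all 3 Epi libraries, and no fold is given for these. A gene under 1 TPM in every library of one group passed the filter through the other group alone, so the direction of its difference was fixed, which held for 895 genes through Epi and 198 through TE. Of the other 9239 genes 1074 (11.6%) were higher and 3335 (36.1%) lower, 1734 of them (18.8%) in both scalings. Counts over lists are descriptions, and where members that passed through a single group are set apart, the shares given beside the rest are those of these 9239 genes. Median-ratio scaling moved the median from -0.78 to 0.1, so a higher call could hardly be lost by it. Below, "in both scalings" means these shared calls, which for higher genes are no check beyond the TPM call.

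The genes higher in TE in both scalings carried 45.0% ± 0.596 of all TPM in TE, against 11.6% ± 1.15 in Epi (SD, n = 3 each). The genes lower in both scalings carried 2.44% ± 0.0908 in TE, against 23.2% ± 1.25 in Epi. The 10 most abundant genes alone held 11.9% to 12.5% of TPM in TE and 6.8% to 7.3% in Epi. Without Epi replicate 1, 9199 genes were tested, and 1408 were higher and 3309 lower, including 1177 of the 1248 and 3072 of the 4203. Libraries of TE lay wholly above those of Epi for 1898 genes (18.4%) and wholly below for 5132 (49.7%).

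**Figure D2:**
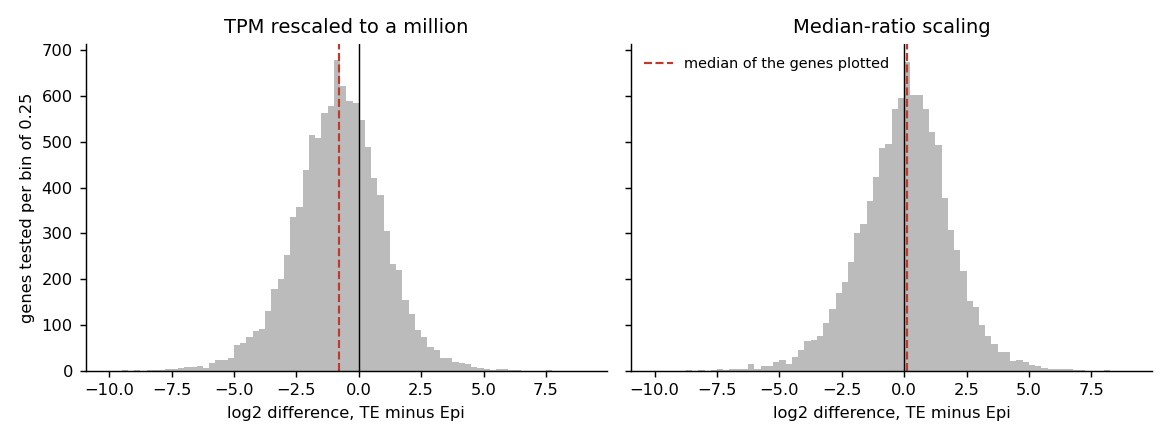
Number of genes by their TE minus Epi difference on the log2(TPM + 1) scale at E4.5, in bins of 0.25, on the TPM scale and after median-ratio scaling. Dashed lines mark the medians of -0.78 and 0.1.

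The 12 largest increases in TE included a peptide transporter, several secreted proteins and a galectin. Slc15a2, a transporter that takes up small peptides (chromosome 16, 36750177 to 36784962), stood at 270.1, 274 and 240.2 TPM in TE and 1.07, 0.114 and 0 TPM in Epi. It led the list at 7.63 ± 0.32, and one of the Epi libraries was listed at 0. Dmkn, which encodes the secreted epithelial protein dermokine (chromosome 7, 30763756 to 30781063), stood at 412, 382 and 306 TPM in TE and 2.84, 5.19 and 2.7 TPM in Epi. Its difference was 6.36 ± 0.25, with no overlap of the groups. Crxos, a homeobox gene that lies across from Crx and is counted here without known use of strand, reached 7314, 7656 and 6059.9 TPM in TE and 101, 115 and 100.3 TPM in Epi. Lgals1, the carbohydrate-binding galectin-1, reached 12275, 11527 and 11185 TPM in TE and 188, 274 and 191 TPM in Epi. Both were among the most abundant RNAs of TE and were higher by 6.04 and 5.76 on the log2 scale.

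Dppa1 (455, 616 and 427 TPM in TE and 13.3, 10.7 and 2.34 TPM in Epi), named for its expression in early embryos, and Timd2 (83, 104 and 82.6 TPM in TE and 0.80, 0 and 1.74 TPM in Epi), a surface receptor that binds ferritin in mice, were higher by 5.90 and 5.73. Glipr1, a member of the secreted CAP protein family, stood at 305, 353 and 293 TPM in TE and 6.14, 7.77 and 2.63 TPM in Epi. Pdzk1ip1, a small membrane protein of epithelia, stood at 129, 131 and 121 TPM in TE and 1.1, 2.71 and 0.976 TPM in Epi. Glrx5, a mitochondrial glutaredoxin needed to pass on iron-sulfur clusters, stood at 327, 304 and 342 TPM in TE and 1.18, 13.5 and 8.95 TPM in Epi, and Epi replicate 1 was the lowest of the Epi libraries. Ctsll3, a cathepsin L-like protease, stood at 717, 716 and 768 TPM in TE and 16.3, 16.9 and 20.6 TPM in Epi. AA467197 stood at 2029.5, 2064 and 1941 TPM in TE and 50.9, 30.1 and 45 TPM in Epi, and Arglu1, a protein of splicing and transcription, at 192, 237 and 164 TPM in TE and 3.15, 2.77 and 1.47 TPM in Epi. These 12 genes were picked among called genes whose groups did not overlap, so both traits were set by the choice. Their adjusted p-values by limma lay between 2.53e-08 (Crxos) and 7.26e-05 (Glrx5).

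The 12 largest decreases in TE, picked by the same rule, included Nanog, a kinase, other factors known from pluripotent cells and a Polycomb subunit. Zscan10, Nr0b1, Phc1, Cyp2b23, Hmga1b, Uchl1 and H3c15 were under 1 TPM in every TE library. These genes passed the filter through Epi alone, so their direction was fixed. Pim2, a serine/threonine kinase (chromosome X, 7878262 to 7883432), stood at 2.69, 1.1 and 1.13 TPM in TE and 795, 807 and 847 TPM in Epi. Its difference of -8.33 ± 0.24 had an adjusted p of 1.04e-07, and PrE libraries held 101, 165 and 80.4 TPM. Zscan10, a zinc-finger factor of the pluripotency network, stood at 0.453, 0.0713 and 0.0784 TPM in TE and 299, 329 and 537 TPM in Epi. Nr0b1, the orphan nuclear receptor DAX1, stood at 0.924, 0.997 and 0.907 TPM in TE and 456, 685 and 644 TPM in Epi. Both were lower in TE by over 8 on the log2 scale (-8.31 and -8.24), and the TE libraries were below 1 TPM for each.

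Phc1, a subunit of the Polycomb complex PRC1 (chromosome 6, 122317731 to 122340561), stood at 0.434, 0.271 and 0.738 TPM in TE and 367, 461 and 465 TPM in Epi, a difference of -8.19 ± 0.23. Septin1, a GTP-binding cytoskeletal protein, stood at 2.51, 2.37 and 3.34 TPM in TE and 769, 976 and 773 TPM in Epi. Cyp2b23, a cytochrome P450, stood at 0.11, 0.776 and 0 TPM in TE and 250.3, 236 and 204 TPM in Epi, and Laptm5, a lysosomal membrane protein, at 0.922, 1.3 and 0.205 TPM in TE and 249, 303 and 411 TPM in Epi. Every one of these was near 0 in PrE too, at or below 9.57 TPM. Hmga1b, a near-copy of the gene for the chromatin protein HMGA1 whose reads cannot be separated with certainty, and Uchl1, a deubiquitinating enzyme, were listed at 0 in all 3 TE libraries. Hmga1b stood at 666, 609.6 and 560.0 TPM and Uchl1 at 156, 246 and 168 TPM in Epi, so no fold is given.

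H3c14 and H3c15, a pair of histone H3 genes of near-identical sequence, completed the largest decreases. H3c15 stood at 0.894, 0.792 and 0.778 TPM in TE and 262, 652 and 347 TPM in Epi, and H3c14 at 0.964, 1.0 and 0.40 TPM in TE and 231, 582 and 296 TPM in Epi. In PrE libraries H3c15 stood at 419, 1077 and 679 TPM. Replication-dependent histone RNA lacks a poly(A) tail, as does the ribosomal precursor Rn45s, whose share was higher in Epi and PrE libraries too. What part that had in the histone result was not tested.

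The promoters of a few of these genes are shown for the motifs of factors named above. The 250 bases before the annotated start were taken from RefSeq on GRCm38.p6, and all are written 5′ to 3′ along the gene's strand, with motif matches in capitals. Slc15a2 and Pim2 had the largest difference in each direction among genes detected in both groups, Krt18 was the marker, and Zfp42 (Rex1), a naive pluripotency gene at 239, 224 and 255 TPM in TE and 994, 947 and 951 TPM in Epi, was picked after its matches had been seen. The Slc15a2 window, chr16:36784963-36785212 on the minus strand, held the GATA core AGATAA 95 bases before the start. The Krt18 window, chr15:102027966-102028215 on the plus strand, held the AP-2 core GCCNNNGGC at 83 bases. The Pim2 window, chrX:7878056-7878305 on the plus strand, held the POU octamer ATTTGCAT at 202 bases and, on the opposite strand, at 123 bases. The Zfp42 window, chr8:43307010-43307259 on the minus strand, held the octamer at 186 bases, the AP-2 core at 100 bases and the TEAD core GGAATG on the opposite strand at 45 bases.
Slc15a2: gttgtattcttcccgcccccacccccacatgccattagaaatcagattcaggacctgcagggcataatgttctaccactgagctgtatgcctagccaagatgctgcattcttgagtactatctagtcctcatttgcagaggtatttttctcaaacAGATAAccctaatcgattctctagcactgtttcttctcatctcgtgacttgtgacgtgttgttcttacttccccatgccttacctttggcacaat
Krt18: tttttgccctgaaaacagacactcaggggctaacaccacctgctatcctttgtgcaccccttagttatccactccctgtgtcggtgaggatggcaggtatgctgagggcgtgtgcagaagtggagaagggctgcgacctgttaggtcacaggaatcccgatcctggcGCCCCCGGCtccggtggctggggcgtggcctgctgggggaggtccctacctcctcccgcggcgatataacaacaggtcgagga
Pim2: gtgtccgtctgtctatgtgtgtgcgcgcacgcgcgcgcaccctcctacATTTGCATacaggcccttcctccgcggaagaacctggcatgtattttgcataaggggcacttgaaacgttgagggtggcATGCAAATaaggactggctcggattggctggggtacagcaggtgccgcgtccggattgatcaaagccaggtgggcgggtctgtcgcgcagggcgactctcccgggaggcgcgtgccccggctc
Zfp42: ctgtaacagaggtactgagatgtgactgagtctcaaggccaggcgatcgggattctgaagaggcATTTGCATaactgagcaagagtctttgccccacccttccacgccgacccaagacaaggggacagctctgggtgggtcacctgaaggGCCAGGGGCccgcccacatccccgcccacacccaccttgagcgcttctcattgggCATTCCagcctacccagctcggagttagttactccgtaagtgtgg

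Across promoters of 300 bases (250 before to 50 after the start, both strands), the share holding each motif was counted per set of genes, without a test. The set of all genes tested includes the called ones. The octamer was in 1.55% of promoters of genes higher in TE in both scalings, 1.98% of those lower in both, and 1.37% of those of all genes tested. The TEAD core was in 13.5%, 12.8% and 12% of the same sets, the GATA core in 7.9%, 6.18% and 6.3%, and the AP-2 core in 24.3%, 22.8% and 24.6%. Over all 32851 promoters of the RefSeq table the shares were 1.74%, 14.7%, 11.2% and 16.6% in the same order of motifs. Of the genes, 1014 of 1248, 1933 of 2429 and 8267 of 10332 had a promoter in that table. These are letter matches and say nothing of binding.

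Trophectoderm genes were higher as a group. All 16 genes of the list were tested, 12 were higher in TE (all in both scalings) and none was lower, beside 12.1% higher among all genes tested. The median difference was 2.69, against -0.78 for all genes, and the counts were also 12 and 0 without Epi replicate 1. Tspan8, a tetraspanin of the epithelial surface, stood at 2509.8, 2731 and 2549.8 TPM in TE and 120.1, 56.2 and 59.9 TPM in Epi and differed the most, by 5.11 ± 0.26 (adjusted p of 1.11e-06). Krt8, the partner of Krt18 in simple epithelia (chromosome 15, 101996698 to 102004482), stood at 3136, 3136 and 3533 TPM in TE and 339, 424 and 379.6 TPM in Epi and differed by 3.10 ± 0.10. Krt19 stood at 61, 65.6 and 61.9 TPM in TE and 6.78, 2.62 and 1.97 TPM in Epi. None of these genes overlapped between the groups.

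Of the transcription factors, Gata3, which acts beside CDX2 in TE (chromosome 2, 9857078 to 9890034), stood at 86.9, 95 and 86.5 TPM in TE and 6.42, 13.3 and 1.54 TPM in Epi (difference 3.81 ± 0.54, adjusted p of 3.88e-04). Gata2, its relative, stood at 14.3, 14.3 and 16.9 TPM in TE and 1.36, 0 and 2.0 TPM in Epi (difference 3.07). Id2, an inhibitor of helix-loop-helix factors, was abundant at 1940.4, 1953 and 2094 TPM in TE and 303, 228 and 215 TPM in Epi (difference 3.02). All 3 had TE libraries above all Epi libraries. Cdx2, the homeobox factor that specifies TE (chromosome 5, 147300805 to 147307270), was low in both groups, at 1.56, 4.52 and 4.78 TPM in TE and 1.07, 0 and 0 TPM in Epi. It was called at a difference of 1.77 ± 0.49 (adjusted p of 0.0132), but not without TE replicate 2 (0.072) or TE replicate 3 (0.075). Tfap2c, the AP-2 gamma factor, stood at 31.3, 35.6 and 29.6 TPM in TE and 1.14, 18.4 and 18.2 TPM in Epi and was not called (adjusted p of 0.0682), with Epi replicate 1 far below its partners. It was called without Epi replicate 2 (0.03), without Epi replicate 3 (0.048) and after median-ratio scaling (0.0114). Without Epi replicate 1 its difference was 0.78, against 1.84 with all libraries, and without TE replicate 1, 2 or 3 the adjusted p was 0.13, 0.14 or 0.12. Dab2, an endocytic adaptor, was higher in TE than in Epi (32.7, 32.8 and 33.6 TPM in TE and 8.37, 3.43 and 4.01 TPM in Epi), although PrE held far more at 2853, 1768 and 2529.5 TPM. Cldn4, a tight-junction claudin, overlapped between the groups at 35, 35.2 and 37.2 TPM in TE and 81.5, 36.9 and 35.3 TPM in Epi, and its difference of -0.40 became 0.59 after median-ratio scaling. Slc2a3, a glucose transporter at 40.7, 44.3 and 42.9 TPM in TE and 19.9, 17 and 28 TPM in Epi, did not overlap but missed the minimum difference at 0.97, and passed it without Epi replicate 3 (1.17) or TE replicate 1 (1.01).

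Genes of polar TE and of the extra-embryonic ectoderm that grows from it went both ways. Of 9 genes, all tested, 3 were higher (33.3%, beside 12.1% of all genes) and 2 lower (22.2%, beside 23.5%) in TE in both scalings. On the TPM scale without Epi replicate 1, 4 were higher and 1 lower of 8. Fgfr2, the receptor through which TE responds to FGF4, stood at 40.3, 41.2 and 42.8 TPM in TE and 0.92, 0.109 and 1.48 TPM in Epi, a difference of 4.61 ± 0.39 with an adjusted p of 1.86e-05. Elf5, an ETS factor of trophoblast stem cells (chromosome 2, 103411688 to 103450989), stood at 188, 179.7 and 187 TPM in TE and 24.1, 29.7 and 28.8 TPM in Epi, a difference of 2.71 ± 0.15. Eomes, a T-box factor needed for trophoblast growth, stood at 35.4, 38.1 and 45.7 TPM in TE and 10.6, 13.2 and 17.4 TPM in Epi. These had no overlap between groups. Esrrb and Bmp4 were lower in TE, and Esrrb passed the filter through Epi alone. Esrrb, an orphan receptor shared by naive pluripotent cells and trophoblast stem cells, stood at 0.426, 0.482 and 0.547 TPM in TE and 53.4, 68.3 and 56 TPM in Epi, and Bmp4, a secreted ligand, at 9.17, 10.03 and 14.1 TPM in TE and 116, 102 and 166 TPM in Epi. Plet1 (222, 217 and 225 TPM in TE and 189, 197 and 159.6 TPM in Epi), a surface protein of trophoblast progenitors, and Ascl2 (15.3, 14.7 and 18.9 TPM in TE and 17.5, 36.7 and 7.35 TPM in Epi), a helix-loop-helix factor, were not called on the TPM scale, and Plet1 was called higher after median-ratio scaling.

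Of 12 mural and giant cell genes, 9 fell below the filter, among them the prolactin-family genes Prl3d1, Prl2c2, Prl3b1 and Prl4a1, which were listed at 0 in all 3 TE libraries. Prl3d1 stood at 0, 0 and 0 TPM in TE and 11.4, 0 and 9.58 TPM in Epi. Of the 3 tested, Ndrg1, a stress-responsive gene, was higher in TE, at 87.7, 83 and 92.6 TPM in TE and 15, 3.32 and 33.2 TPM in Epi. Hand1, the factor that drives giant cell formation, overlapped at 1.8, 4.37 and 2.12 TPM in TE and 1.4, 4.61 and 1.99 TPM in Epi, and Ctsl, a lysosomal protease, stood at 88.5, 92.6 and 103 TPM in TE and 133, 146 and 143 TPM in Epi with neither called.

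Among keratin and desmosome genes, 10 of 13 were tested, with 6 higher (60%, beside 12.1% of all genes) and 1 lower in both scalings. The counts on the TPM scale without Epi replicate 1 were also 6 and 1 of 10. One of the 6, Dsc2, passed the filter through TE alone. The lower gene was Jup, plakoglobin, which links desmosomes and adherens junctions to filaments. Jup stood at 2.13, 1.35 and 2.31 TPM in TE and 274, 460.1 and 451 TPM in Epi, a difference of -7.05 ± 0.27 with an adjusted p of 2.99e-07, and at 309, 385 and 379 TPM in PrE. The desmosomal genes Dsg2 (7.06, 8.69 and 9.56 TPM in TE and 9.86, 8.14 and 2.33 TPM in Epi) and Pkp2 (12.6, 13.6 and 18.9 TPM in TE and 6.64, 30.4 and 13.6 TPM in Epi) overlapped between groups and were not called.

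Of 19 junction and polarity genes, all tested, 8 were higher in TE in both scalings (42.1%, beside 12.1% of all genes) and 4 were lower (21.1%, beside 40.7%), and none of these 4 was lower in both. Ocln, the tight-junction protein occludin, stood at 41.4, 55.3 and 47.6 TPM in TE and 4.15, 6.86 and 8.49 TPM in Epi, and Cldn3, a claudin, at 244, 249 and 232 TPM in TE and 28.8, 44.3 and 42 TPM in Epi. Pard6b, a subunit of the apical polarity complex, stood at 8.72, 12 and 9.24 TPM in TE and 0.988, 0 and 1.65 TPM in Epi. They were higher by 2.75, 2.65 and 2.65 on the log2 scale, without overlap. F11r, the junction adhesion molecule, stood at 129, 101 and 119 TPM in TE and 303, 294 and 376 TPM in Epi and differed by -1.47, or -0.47 after median-ratio scaling. Pard3 (4.42, 5.27 and 4.68 TPM in TE and 9.46, 17.8 and 16.6 TPM in Epi) and Prkci (3.27, 5.98 and 6.5 TPM in TE and 17.3, 14.3 and 11.5 TPM in Epi), the partners of Pard6b, were lower on the TPM scale (adjusted p of 0.00915 and 0.0127) but not after median-ratio scaling (0.269 and 0.337), and the Prkci call was lost without TE replicate 1 (0.069). Cldn6 overlapped, at 81.9, 75 and 78.1 TPM in TE and 63.6, 57.7 and 82.1 TPM in Epi.

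Of 9 tested genes for the pumping of ions and water, 3 were higher (33.3%, beside 12.1% of all genes) and 3 lower (33.3%, beside 23.5%) in both scalings, and Aqp9 passed the filter through TE alone. Aqp9 (6.92, 7.5 and 6.61 TPM in TE and 0.563, 0 and 0 TPM in Epi) and Aqp3 (31.8, 35.4 and 37.7 TPM in TE and 17.8, 15.5 and 14.9 TPM in Epi), aquaporins that carry water and small solutes, were higher in TE by 2.79 and 1.08. Among subunits of the sodium pump, Atp1b1 was higher in TE at 94.2, 102 and 135 TPM in TE and 51.8, 39.96 and 38.9 TPM in Epi. Atp1b3, another beta subunit, was lower at 95.4, 103 and 94.3 TPM in TE and 576, 672 and 629 TPM in Epi, a difference of -2.67 ± 0.11 (adjusted p of 3.93e-07). None of these 4 genes had overlapping groups. The aquaporin gene Aqp11 (1.18, 1.12 and 1.19 TPM in TE and 10.7, 0 and 0.246 TPM in Epi) and the chloride cotransporter gene Slc12a2 (1.17, 1.23 and 1.25 TPM in TE and 6.45, 0.193 and 1.05 TPM in Epi) overlapped, with Epi replicate 1 the highest for both.

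Of the 11 core pluripotency genes, Sox2, Lin28a, Gdf3 and Fgf4 were under 1 TPM in every TE library and passed the filter through Epi alone, so their direction was fixed. The other 7 were all lower in TE, 6 in both scalings, beside 36.1% and 18.8% of the 9239 genes that reached 1 TPM in at least 1 library of each group. Their median was -4.39, against -0.65 for those genes. Without Epi replicate 1 the filter kept 7, and all 7 were lower, since a gene under 1 TPM in TE then has too few libraries left to pass. Pou5f1, the POU factor Oct4 (chromosome 17, 35506018 to 35510772), stood at 2.92, 1.49 and 2.7 TPM in TE and 165, 294 and 247 TPM in Epi, a difference of -6.12 ± 0.29 (adjusted p of 9.29e-07). Gdf3, a ligand of the TGF-beta family, stood at 0.657, 0.356 and 0 TPM in TE and 138, 122 and 140.4 TPM in Epi, and Tdgf1, the Nodal co-receptor Cripto, at 5.32, 5.55 and 4.73 TPM in TE and 522, 385 and 538 TPM in Epi. Each was lower by more than 6 on the log2 scale with no overlap. Sox2, the partner of Oct4, was low also in Epi, at 0.195, 0 and 0.0731 TPM in TE and 6.94, 1.03 and 8.59 TPM in Epi. It was lower in TE on the TPM scale (adjusted p of 0.00929) and was not tested after median-ratio scaling.

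Of 16 naive pluripotency genes 15 were tested, and 3 of these, Esrrb, Nr0b1 and Pecam1, passed through Epi alone. Among the other 12, 2 were higher (16.7%, beside 11.6%) and 8 lower (66.7%, beside 36.1%), 6 of them in both scalings (50%, beside 18.8%). Without Epi replicate 1 the counts were 2 and 8 of 12. Nr0b1, described above, and Tcl1, an AKT co-activator at 1.35, 1.15 and 1.42 TPM in TE and 174, 237 and 180.4 TPM in Epi, were lower by more than 6. Dppa5a and Dppa3 were the higher ones. Dppa5a, which encodes an RNA-binding KH-domain protein, was among the most abundant RNAs of all libraries at 26260.0, 24120.0 and 24182 TPM in TE and 11266, 11967 and 9835 TPM in Epi. Its difference was 1.18 ± 0.08 (adjusted p of 6.96e-06), and it was not called after quantile normalization (0.092). Dppa3, the maternal factor Stella, stood at 302, 319 and 288 TPM in TE and 54.2, 57.8 and 44.9 TPM in Epi, a difference of 2.52 ± 0.14. Klf5 (57.8, 50.2 and 60.1 TPM in TE and 33, 53.7 and 49.4 TPM in Epi), a factor of both TE and naive cells, and Fbxo15 (199, 224 and 225 TPM in TE and 252, 200.3 and 319.6 TPM in Epi) overlapped between groups.

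Of 12 genes of the later, formative state, 8 were tested, and 5 of these passed the filter through Epi alone, so their direction was fixed. Of the other 3, 2 were lower in TE in both scalings (66.7%, beside 18.8%), and 3 genes are too few to read a share from. Otx2, a homeobox factor, stood at 0.151, 0.195 and 0.768 TPM in TE and 86.2, 172 and 141 TPM in Epi, and was below 1 TPM in every TE library. Dnmt3b, a DNA methyltransferase, was at similar levels with overlap (55.1, 56.3 and 58.4 TPM in TE and 86.5, 50.9 and 91 TPM in Epi).

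In the FGF pathway the receptor gene Fgfr2 was higher in TE, as given above, and the ligand gene Fgf4 was under 1 TPM there. Fgf4 stood at 0.33, 0.0755 and 0.251 TPM in TE and 32.5, 38.8 and 53 TPM in Epi. It passed the filter through Epi alone, so the direction of its difference of -5.10 ± 0.36 was fixed. Of 15 FGF and ERK genes 12 were tested. Fgf4, Fgf5, Spry4, Spred1, Etv4 and Etv5 were under 1 TPM in every TE library and passed through Epi alone. The other 6 held 2 higher and 2 lower genes (33.3% each, beside 11.6% and 36.1%), and 1 of the lower genes was lower in both scalings. Spry2, an inhibitor that ERK signalling induces, was the other higher gene, at 95.2, 99.5 and 98.1 TPM in TE and 4.37, 6.34 and 4.4 TPM in Epi (difference 4.05 ± 0.23, adjusted p of 2.01e-06). Etv5 (0.398, 0.343 and 0.222 TPM in TE and 117, 145 and 187 TPM in Epi), an ETS factor induced by FGF, and Egr1 (1.0, 1.47 and 1.01 TPM in TE and 190.2, 220.0 and 204 TPM in Epi), an immediate early factor, were lower by over 6. The ERK phosphatase gene Dusp6 (67.5, 77.2 and 79.8 TPM in TE and 79.4, 53.7 and 76.7 TPM in Epi) overlapped, and Fgfr1 (5.46, 3.98 and 5.49 TPM in TE and 13.8, 8.42 and 5.95 TPM in Epi) was not called.

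Of 22 Nodal and BMP genes 17 were tested, 3 of which passed through Epi alone (Nodal, Lefty2 and Gdf3) and 2 through TE alone (Cfc1 and Bmp8b). The other 12 held 1 higher and 4 lower genes (8.33% and 33.3%, beside 11.6% and 36.1%), so their shares were near those of the genes at large. Nodal, the ligand that maintains the epiblast, stood at 0.422, 0 and 0.322 TPM in TE and 70.7, 69.5 and 86.2 TPM in Epi, a difference of -5.95 ± 0.32. Cfc1, the co-receptor Cryptic, was listed at 0 in all 3 Epi libraries and at 11.2, 11.3 and 9.24 TPM in TE, so no fold is given, and PrE held 64.7, 69.8 and 63.7 TPM. Bmp8b, a BMP ligand, was higher at 1.37, 2.05 and 4.23 TPM in TE and 0.587, 0.152 and 0.167 TPM in Epi, a call lost with array weights (0.068) and without the filter (0.11). Id1 (10.4, 6.6 and 7.91 TPM in TE and 13.3, 19.97 and 17.2 TPM in Epi), a BMP target, and Pcsk6 (13.7, 11.9 and 11.8 TPM in TE and 11.7, 4.72 and 19.5 TPM in Epi), a protease that matures Nodal, were not called, although Id1 was called lower without Epi replicate 1 (-1.09).

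Among 6 tested LIF and STAT3 genes, Lifr, the LIF receptor, passed through Epi alone and was lower in both scalings (0.446, 0.439 and 0.658 TPM in TE and 12.6, 4.49 and 10.1 TPM in Epi), and Stat3 (13.9, 15 and 13.7 TPM in TE and 69.5, 30.4 and 42.8 TPM in Epi) was lower on the TPM scale alone. Jak1 (11.5, 14.2 and 11.4 TPM in TE and 17.7, 3.33 and 8.95 TPM in Epi) and Pim1 (4.99, 3.08 and 2.88 TPM in TE and 11.2, 4.05 and 9.13 TPM in Epi), a kinase gene that STAT3 induces, overlapped and were not called, although Pim1 was called lower without Epi replicate 2 (0.011).

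Of 20 Hippo pathway genes 18 were tested, and 0 were higher and 8 lower in TE by limma (44.4%, beside 40.7% of all genes), 5 in both scalings (27.8%, beside 23.5%). The median was -0.77, against -0.78 for all genes, and 3 of the 18 passed through Epi alone and 1 through TE alone. After median-ratio scaling 3 were higher. Mob1a, which activates the LATS kinases, stood at 4.51, 6.01 and 6.77 TPM in TE and 613, 709 and 677 TPM in Epi, a difference of -6.64 ± 0.18 (adjusted p of 6.99e-08). Nf2, the upstream activator merlin, stood at 1.88, 2.1 and 2.22 TPM in TE and 90.4, 101 and 128 TPM in Epi, and Ccn2, a target gene of YAP, at 0, 0.0918 and 0.594 TPM in TE and 63.7, 51 and 68 TPM in Epi. The groups did not overlap in any of these, and Ccn2 passed the filter through Epi alone. The kinases Stk3 (7.42, 7.86 and 7.99 TPM in TE and 16.6, 6.14 and 18.4 TPM in Epi) and Stk4 (7.11, 7.05 and 9.75 TPM in TE and 10.2, 10.9 and 7.9 TPM in Epi) overlapped, and Stk3 was called lower without Epi replicate 2 (adjusted p of 0.0055).

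**Figure D3:**
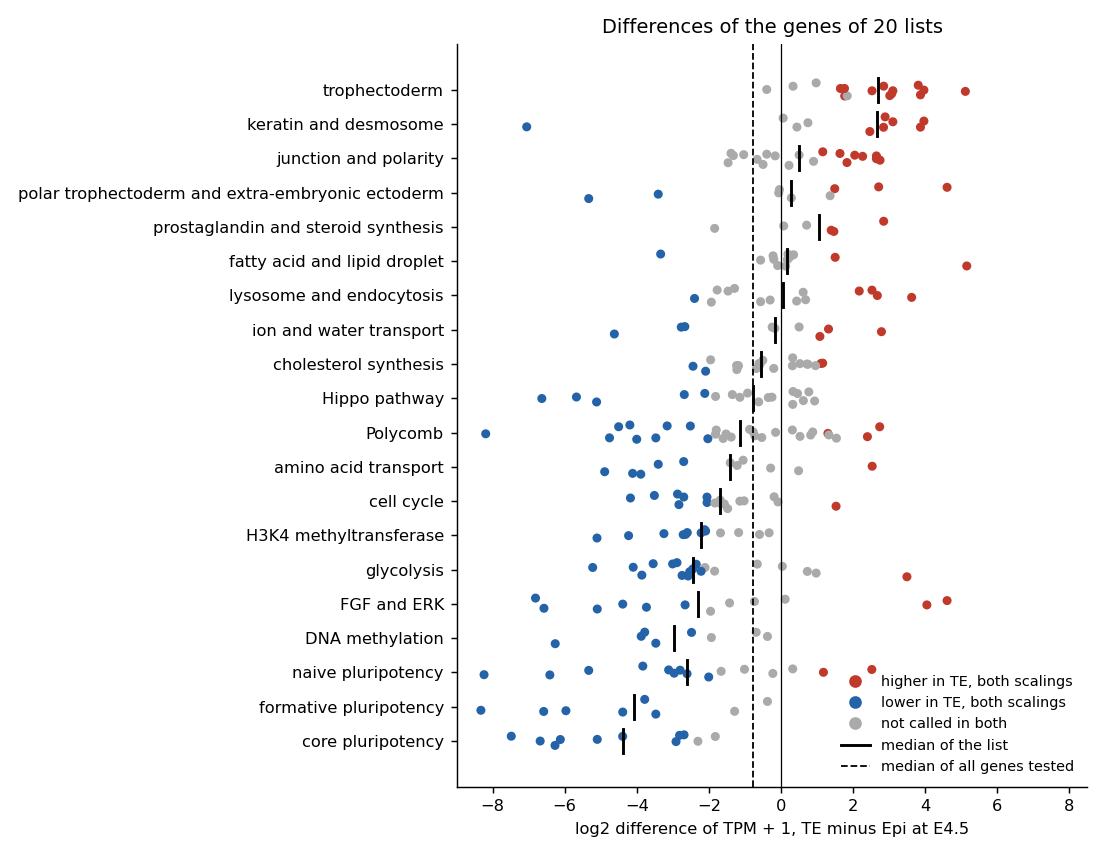
TE minus Epi difference (log2(TPM + 1) scale, E4.5) of each tested gene in 20 gene lists. Points are genes, coloured where called higher or lower in both scalings, short bars are list medians, and the dashed line is the median of all genes, -0.78. The trophectoderm median lies at 2.69 and the core pluripotency median, over all 11 tested genes, at -4.39.

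Most glycolysis genes were lower in TE, and a gene for the first enzyme was higher. Of 19 tested genes, Aldoc and Slc16a3 passed through Epi alone. The other 17 held 1 higher and 12 lower genes (70.6%, beside 36.1%), 10 of them lower in both scalings (58.8%, beside 18.8%), and their median was -2.35, against -0.65. Without Epi replicate 1 the counts were 1 and 12 of 17. Hk2, the hexokinase that starts the pathway, was the higher gene at 41.4, 44.7 and 51.7 TPM in TE and 5.04, 0.873 and 5.33 TPM in Epi, a difference of 3.49 ± 0.48 (adjusted p of 3.04e-04). Pfkp, a phosphofructokinase, stood at 6.92, 4.8 and 3.98 TPM in TE and 219.7, 196 and 275 TPM in Epi, a difference of -5.22 ± 0.24. Pkm, pyruvate kinase, stood at 137, 139.7 and 157 TPM in TE and 1940.1, 1878 and 2577 TPM in Epi, a difference of -3.86 ± 0.14. Slc16a3, a lactate exporter, was below 1 TPM in TE and varied widely in Epi, at 0.0526, 0.109 and 0.0762 TPM in TE and 2.28, 49.4 and 37.4 TPM in Epi. The groups were apart in all 4 genes. Tpi1 (494, 486 and 539 TPM in TE and 416, 548 and 527 TPM in Epi) and Pgk1 (249, 255 and 302 TPM in TE and 442, 378 and 455 TPM in Epi), enzymes of the middle of the pathway, were not called, and Tpi1 was called higher after median-ratio scaling (1.04).

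Among the glycolysis genes called in both scalings, PrE libraries were nearer to Epi than to TE for 11 of 13. Pkm stood at 1607, 1312 and 1598 TPM in PrE, nearer to Epi than to TE, and Hk2 at 2.97, 4.99 and 3.9 TPM. Pfkp was an intermediate case at 25.3, 22.5 and 24.7 TPM. Over all genes, PrE was nearer to Epi for 909 of the 1248 higher genes (72.8%) and 1404 of the 2429 lower genes (57.8%). PrE was nearer to Epi for 9 of 9 called H3K4 methyltransferase genes, 7 of 8 cell cycle genes and 11 of 12 trophectoderm genes. It was nearer to Epi for 3 of 9 core pluripotency genes, 2 of 11 naive pluripotency genes, 5 of 12 Polycomb genes and 0 of 5 lysosome genes, the rest being nearer to TE. No test was made of these list counts. The Rn45s share was high in both Epi and PrE libraries, and its part in these counts was not tested.

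**Figure D4:**
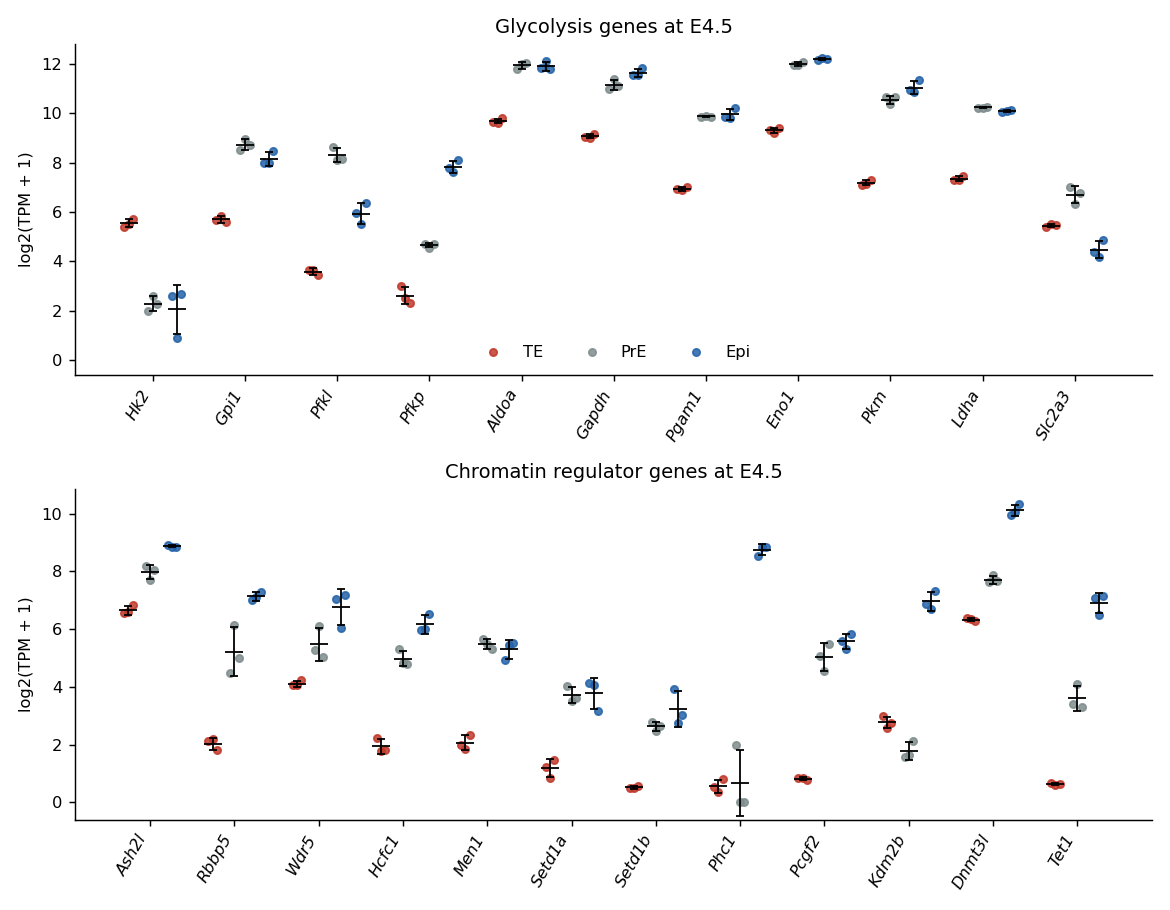
Levels, as log2(TPM + 1), of glycolysis genes and of chromatin genes in the 3 TE, 3 PrE and 3 Epi libraries at E4.5, with bars for mean ± SD. The genes drawn were chosen after their values had been seen. Pkm and Rbbp5 are low in TE and higher in PrE and Epi, and Dnmt3l and Phc1 are highest in Epi.

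In lipid metabolism the abundant fatty acid carrier Fabp3 stood at 13743, 13050.0 and 12661 TPM in TE and 393, 396 and 322 TPM in Epi, a difference of 5.15 ± 0.10 with an adjusted p of 2.53e-08. Plin2, the coat protein of lipid droplets, was higher at 223, 239.6 and 264 TPM in TE and 77, 99.7 and 79 TPM in Epi, and Apoe, a lipid carrier that cells secrete, was lower at 215, 217 and 235 TPM in TE and 2059, 2555 and 2186 TPM in Epi. No library of one group reached the other in these 3 genes. They were the only calls among 12 tested genes of the list on the TPM scale. The shares were 16.7% higher (beside 12.1% of all genes) and 8.33% lower (beside 40.7%). After median-ratio scaling 5 of the 12 were higher, beside 26.1% of all genes. Fabp5 (35.4, 32 and 34.7 TPM in TE and 20.5, 35.5 and 32.7 TPM in Epi) and Plin3 (47.9, 50.8 and 47.1 TPM in TE and 69.3, 53.7 and 102 TPM in Epi) were not called. Of 20 cholesterol synthesis genes 2 were higher (10.0%, beside 12.1% of all genes) and 7 lower (35%, beside 40.7%), shares near those of all genes on the TPM scale. In both scalings 2 were lower (10.0%, beside 23.5%). After median-ratio scaling 8 of the 20 were higher, beside 26.1% of all genes. Fdps, which makes farnesyl diphosphate, was higher at 355, 317 and 336 TPM in TE and 124, 191 and 157 TPM in Epi, and its difference fell under 1 without Epi replicate 1 (0.95). Lss, lanosterol synthase, was lower in both scalings at 2.43, 3.6 and 4.04 TPM in TE and 16.4, 18.1 and 17.5 TPM in Epi, and its call was lost after quantile normalization, at a difference of -0.89. Fdft1, squalene synthase, stood at 75.2, 72.9 and 79.3 TPM in TE and 319, 281 and 290.1 TPM in Epi, with a difference of -1.95 on the TPM scale and -0.95 after median-ratio scaling. Msmo1 (126, 137 and 146 TPM in TE and 144, 138 and 193 TPM in Epi) and Pmvk (112, 104 and 117 TPM in TE and 91.1, 39.7 and 82.3 TPM in Epi) were not called.

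Of 11 tested amino acid transporters 1 was higher and 6 lower (54.5%, beside 40.7% of all genes), 5 in both scalings (45.5%, beside 23.5%), and the counts were the same without Epi replicate 1 (1 and 6 of 11). Slc6a14, a broad amino acid importer, was higher at 86.3, 84.3 and 97 TPM in TE and 16.9, 16.4 and 11.2 TPM in Epi. The glutamine carrier Slc1a5 stood at 3.78, 2.34 and 5.31 TPM in TE and 124, 117 and 178 TPM in Epi, and the cationic amino acid carrier Slc7a3 at 31.1, 41.7 and 43.5 TPM in TE and 739.7, 534 and 802 TPM in Epi. Its relative Slc7a1 stood at 6.58, 8.1 and 8.52 TPM in TE and 103, 105 and 194 TPM in Epi. All 4 differed without overlap. Slc38a1 (14, 16.6 and 18.9 TPM in TE and 7.08, 22.9 and 8.84 TPM in Epi) and Slc7a5 (5.15, 5.34 and 3.93 TPM in TE and 4.62, 6.0 and 7.9 TPM in Epi) overlapped.

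Prostaglandin and steroid genes were mostly below the filter, which 6 of 13 passed. Ptges, a prostaglandin E synthase, was higher in TE at 31, 35.3 and 35.5 TPM in TE and 1.72, 4.81 and 6.2 TPM in Epi (difference 2.85 ± 0.40). Ptges2, another such synthase (42.4, 55.1 and 58.8 TPM in TE and 32.4, 22.2 and 9.36 TPM in Epi), and Hsd17b2, a steroid dehydrogenase (3.97, 2.29 and 1.64 TPM in TE and 1.05, 0 and 0 TPM in Epi), were called higher. The Ptges2 call was lost without TE replicate 3 (0.054) and its difference fell under 1 without Epi replicate 3 (0.92). The Hsd17b2 call was lost without Epi replicate 3 (0.058), TE replicate 1 (0.12) or TE replicate 2 (0.075). Star, a mitochondrial cholesterol carrier, was lower on the TPM scale (0.224, 0.286 and 0.348 TPM in TE and 8.0, 3.28 and 1.53 TPM in Epi), a call lost without TE replicate 1 (0.053) or TE replicate 2 (0.05). Star passed the filter through Epi alone. Fdx1 (41.9, 45.1 and 39 TPM in TE and 25.3, 33.4 and 19 TPM in Epi) and Ptges3 (396, 393 and 451 TPM in TE and 435, 299 and 463 TPM in Epi) were not called.

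Genes of the H3K4 methyltransferase complexes, which deposit the promoter mark that the wider study profiled, were mostly lower in TE. All 13 were tested, and Kmt2a, Kmt2d and Setd1b passed through Epi alone. Of the other 10, 0 were higher and 8 lower by limma (80.0%, beside 36.1%), 7 in both scalings (70.0%, beside 18.8%), with a median of -2.41. Without Epi replicate 1 the counts were 0 and 8 of 10. Rbbp5, a core subunit, stood at 3.34, 3.55 and 2.47 TPM in TE and 127, 138 and 156 TPM in Epi, a difference of -5.11 ± 0.23 (adjusted p of 7.05e-07). Hcfc1, a cofactor of the SETD1 complexes, stood at 3.67, 2.41 and 2.52 TPM in TE and 61.2, 63 and 91.6 TPM in Epi, and Men1, menin, at 2.96, 2.58 and 4.09 TPM in TE and 29.5, 43 and 45.1 TPM in Epi. Each had TE libraries below all Epi libraries. Dpy30, a subunit of every such complex, was high in both groups at 534, 553 and 475 TPM in TE and 639, 657 and 665 TPM in Epi and was not called, and Kmt2b, a catalytic subunit, overlapped at 2.14, 2.0 and 1.93 TPM in TE and 6.6, 1.74 and 3.61 TPM in Epi.

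Of 28 tested Polycomb genes 3 were higher (10.7%) and 12 lower (42.9%), near the 12.1% and 40.7% of all genes. Pcgf2, Phc1 and Phc3 passed through Epi alone, and the other 25 held 9 lower genes (36.0%, beside 36.1%), 6 in both scalings (24.0%, beside 18.8%). Besides Phc1, the PRC1 genes Pcgf2 (0.803, 0.786 and 0.714 TPM in TE and 46.6, 38.9 and 56.5 TPM in Epi) and Phc3 (0.318, 0.144 and 0.107 TPM in TE and 28.3, 26.4 and 23.3 TPM in Epi) were lower by over 4 on the log2 scale. Pcgf5 (11.8, 15.3 and 13.7 TPM in TE and 1.93, 1.59 and 1.77 TPM in Epi) and Yaf2 (26, 24.7 and 26.8 TPM in TE and 1.51, 2.26 and 6.96 TPM in Epi), subunits of variant PRC1, were higher. Ezh2, the enzyme that writes H3K27 methylation, stood at 35.7, 36.4 and 35.8 TPM in TE and 23.6, 5.63 and 19.8 TPM in Epi and was called higher (adjusted p of 0.0363). That call was lost without TE replicate 1, 2 or 3 (0.086, 0.086 and 0.085), and the difference was 0.71 without Epi replicate 2. Rbbp7 (549.7, 622 and 566 TPM in TE and 946, 763 and 816 TPM in Epi) and Jarid2 (30.4, 37.8 and 36.7 TPM in TE and 49.4, 34.8 and 34 TPM in Epi) were not called.

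Of 8 tested DNA methylation genes Tet1 passed through Epi alone. The other 7 held 0 higher and 5 lower genes by limma (71.4%, beside 36.1%), 4 in both scalings (57.1%, beside 18.8%), and the counts were 0 and 5 of 7 without Epi replicate 1. Dnmt3l, the cofactor of the de novo methyltransferases, stood at 81.9, 79.98 and 77 TPM in TE and 1002, 1054 and 1287 TPM in Epi, a difference of -3.78 ± 0.12 (adjusted p of 1.27e-07). Tet1, which oxidizes methylcytosine, stood at 0.589, 0.52 and 0.55 TPM in TE and 133, 89.4 and 139.6 TPM in Epi. Tet2, of the same family, stood at 2.91, 2.8 and 2.64 TPM in TE and 43.2, 68 and 55.4 TPM in Epi. All 3 were lower in TE without overlap, and PrE held 195, 232 and 201 TPM of Dnmt3l. Tdg, a glycosylase of the same route, overlapped at 6.47, 6.91 and 4.7 TPM in TE and 20.02, 6.28 and 8.25 TPM in Epi. Of 6 histone demethylase genes 3 were lower (50%, beside 40.7% of all genes), 2 in both scalings (33.3%, beside 23.5%). Kdm5b (5.72, 6.11 and 5.59 TPM in TE and 85.7, 75.1 and 152 TPM in Epi) and Kdm5c (1.85, 2.16 and 2.03 TPM in TE and 16.7, 16.5 and 16.9 TPM in Epi), H3K4 demethylases, were these 2. Kdm6a, an H3K27 demethylase at 2.9, 3.17 and 3.18 TPM in TE and 10.7, 7.8 and 7.97 TPM in Epi, was lower on the TPM scale alone, and not without TE replicate 1, 2 or 3 (0.069, 0.063 and 0.061). Kdm1a (16.6, 13 and 18.8 TPM in TE and 20.1, 33.4 and 11.3 TPM in Epi) and Kdm5a (8.76, 9.49 and 9.13 TPM in TE and 3.54, 6.88 and 6.84 TPM in Epi) were not called.

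Of 17 cell cycle genes Ccnd2 passed through Epi alone. The other 16 held 1 higher and 13 lower genes (81.2%, beside 36.1%), 6 of them lower in both scalings (37.5%, beside 18.8%), and the counts were 0 and 12 of 16 without Epi replicate 1. Ccnd3, cyclin D3, stood at 30.7, 18.4 and 30.9 TPM in TE and 469, 409 and 603 TPM in Epi, and Cdt1, which licenses replication origins, at 26.8, 25.6 and 29.1 TPM in TE and 284, 332 and 348 TPM in Epi. Plk1, a mitotic kinase, stood at 26.2, 25.8 and 22 TPM in TE and 168, 199.6 and 192 TPM in Epi. These had no overlap. Cdk1 (95.6, 102 and 103 TPM in TE and 125, 124 and 97.2 TPM in Epi) and Gmnn (334, 361 and 321 TPM in TE and 367, 394 and 319 TPM in Epi), the gene of the Cdt1 inhibitor geminin, overlapped and were not called. Cdkn1c, the imprinted cyclin kinase inhibitor, was the higher gene at 3.79, 3.68 and 4.03 TPM in TE and 0.486, 2.17 and 0 TPM in Epi, but not without TE replicate 1, 2 or 3 (0.082, 0.08 and 0.088), Epi replicate 1 (0.054) or Epi replicate 3 (0.057).

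Of 15 tested imprinted genes 3 were higher (20.0%, beside 12.1% of all genes) and 6 lower (40.0%, beside 40.7%), a lower share near that of all genes. Peg3 and Meg3 passed through Epi alone. H19, a maternally expressed long noncoding RNA, stood at 33.8, 32.6 and 33.4 TPM in TE and 1.76, 2.66 and 0.726 TPM in Epi, and Phlda2, a maternally expressed gene that restrains placental growth, at 622, 615 and 610.5 TPM in TE and 135, 207 and 105 TPM in Epi. Both were higher in TE, by 3.72 and 2.10. Mest (2.44, 1.87 and 1.86 TPM in TE and 100.1, 109 and 148 TPM in Epi) and Peg3 (0.144, 0.0911 and 0.0780 TPM in TE and 76.5, 50.01 and 66.4 TPM in Epi), paternally expressed genes, were lower, with differences of -5.28 and -5.87. None of these 4 overlapped between groups. Igf2 (3.91, 7.19 and 8.21 TPM in TE and 9.48, 10.01 and 14.4 TPM in Epi) was not called.

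Of 14 tested lysosome and endocytosis genes 4 were higher (28.6%, beside 12.1% of all genes) and 5 lower (35.7%, beside 40.7%), 1 in both scalings (7.14%, beside 23.5%). Amn passed through Epi alone and Ctsh through TE alone. Cd63, a tetraspanin of late endosomes, stood at 2214, 2417 and 2175 TPM in TE and 413, 327 and 330.4 TPM in Epi (difference 2.67 ± 0.11, adjusted p of 4.67e-07). Ctsh, a lysosomal protease, was listed at 0 in all 3 Epi libraries and at 14.6, 9.05 and 10.9 TPM in TE. Psap, which encodes the saposins, was the gene lower in both scalings, at 133, 127 and 143 TPM in TE and 606, 645 and 920.3 TPM in Epi. Ctsd (66.7, 70.3 and 74.3 TPM in TE and 221, 217 and 417 TPM in Epi) and Lamp2 (9.44, 13.1 and 11.6 TPM in TE and 37.6, 50.4 and 36.3 TPM in Epi) were lower on the TPM scale alone, and Lamp1 (243, 243 and 259 TPM in TE and 174, 117 and 181 TPM in Epi) and Npc2 (133, 144 and 158 TPM in TE and 98.1, 109 and 114 TPM in Epi) were not called there and were called higher after median-ratio scaling.

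Of 14 tested adhesion and implantation genes 3 were higher (21.4%, beside 12.1%) and 4 lower (28.6%, beside 23.5%) in both scalings, and Fn1 passed through Epi alone. Sdc4, a heparan sulfate proteoglycan, stood at 533, 518 and 515 TPM in TE and 35.2, 29.2 and 53.2 TPM in Epi (difference 3.75 ± 0.20, adjusted p of 1.73e-06), and Cd9, a tetraspanin, at 1765, 1645 and 1832 TPM in TE and 547, 482 and 461 TPM in Epi. Spp1, the secreted ligand osteopontin, was lower at 40.6, 42.9 and 42.7 TPM in TE and 5059, 4289 and 3968 TPM in Epi, a difference of -6.68 ± 0.11 (adjusted p of 2.53e-08). Fn1 (0, 0.0243 and 0.0579 TPM in TE and 14.9, 9.12 and 20.7 TPM in Epi), fibronectin, and Lama5 (1.54, 1.86 and 2.31 TPM in TE and 19, 15.7 and 26.1 TPM in Epi), a laminin chain, were lower too. Groups were apart in all of these. Hbegf, an EGF-family ligand, was called higher at 20.4, 18.3 and 20.2 TPM in TE and 2.33, 3.44 and 13.7 TPM in Epi, with Epi replicate 3 nearest to TE, and not without TE replicate 1, 2 or 3 (0.06, 0.05 and 0.059) or Epi replicate 1 (0.059). Bsg (795, 802 and 842 TPM in TE and 468, 506 and 407 TPM in Epi), basigin, and Plaur (47.5, 53.7 and 51.2 TPM in TE and 28.8, 22.7 and 49.4 TPM in Epi), the urokinase receptor, were not called on the TPM scale.

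Endoderm genes were low in both groups, and 11 of 20 primitive endoderm genes did not pass the filter. Of the 9 tested, Sox17 and Amn passed through Epi alone, and the other 7 held 2 higher and 2 lower genes (28.6% each, beside 11.6% and 36.1%). Gata6, an endoderm factor that early TE also expresses, was higher in TE at 9.51, 11.5 and 8.65 TPM in TE and 2.39, 0 and 0.532 TPM in Epi, a difference of 2.65 ± 0.51 (adjusted p of 0.00200), and PrE held 18.4, 13.1 and 22.8 TPM. Sparc, a matrix protein, was lower at 35.3, 34.3 and 38.3 TPM in TE and 185, 197 and 211 TPM in Epi, and Sox17, an endoderm factor, at 0, 0.359 and 0.336 TPM in TE and 8.59, 2.32 and 14.1 TPM in Epi. The Epi libraries held the higher Sox17 values, which stayed far under the 48.9, 77.3 and 57.6 TPM of PrE. Lamc1 (2.03, 1.23 and 1.81 TPM in TE and 5.16, 8.36 and 9.09 TPM in Epi) was lower on the TPM scale alone, and Lamb1 (1.72, 2.72 and 1.91 TPM in TE and 5.31, 3.12 and 4.45 TPM in Epi) and Srgn (2.01, 3.82 and 3.02 TPM in TE and 1.59, 5.36 and 7.83 TPM in Epi) were not called. Pdgfra, whose promoter drives the reporter, did not pass the filter, with TE against Epi means of 0.0490 against 0.367 TPM. Of the 2 tested visceral endoderm secretory genes, Apoa1 (7.87, 12.7 and 9.93 TPM in TE and 4.67, 0.826 and 0 TPM in Epi) was higher and Apom (0.391, 0 and 0.601 TPM in TE and 35.2, 34.5 and 20.6 TPM in Epi), which passed through Epi alone, lower.

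The same contrast a day earlier, TE against ICM at E3.5, shares no library with the one at E4.5. There 1112 genes were higher and 1468 lower of 10757 tested. The difference between the ages was itself tested in all 12 libraries: of 12072 genes, 1114 (9.23%) had a higher difference at E4.5 and 3640 (30.2%) a lower one, which is 39.4% in either direction, around a median of -0.59. After median-ratio scaling the shares were 19.2% higher and 18.4% lower (37.6% in either direction), and 1106 higher (9.16%) and 2197 lower calls (18.2%) held in both scalings. Here too the scaling moved the median up, from -0.59 to 0.01, so a higher call could hardly be lost by it. Epi at E4.5 stands in for ICM at E3.5, which at that age still holds the precursors of Epi and PrE together. Rn45s held 0.467% to 0.601% of the TE and ICM columns at E3.5, and the part of its higher share in Epi at E4.5 was not tested.

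Trophectoderm genes were high in TE at both ages, with medians of 2.69 at E4.5 and 3.61 at E3.5, and 1 of 16 had a higher and 6 a lower difference at E4.5 (beside 30.2% lower of all genes), 5 of them in both scalings (beside 18.2%). The core pluripotency medians were -4.39 at E4.5 and -2.52 at E3.5, with 7 of 11 lower (5 in both scalings). Glycolysis genes had a median of -2.4 at E4.5 and -0.25 at E3.5, beside -0.69 and -0.15 for all genes tested in this contrast. Of 20 glycolysis genes 14 had a lower difference at E4.5 (11 in both scalings), beside 30.2% and 18.2% of all genes. These all-gene medians and shares are the ones to set beside the other lists too. DNA methylation genes stood at -2.98 and 0.31, with 6 of 8 lower (4 in both scalings), and H3K4 methyltransferase genes at -2.22 and -0.47, with 10 of 13 lower (8 in both). Cell cycle genes stood at -1.69 and -0.2, with 13 of 17 lower and 7 in both. Primitive endoderm genes had medians of -0.3 at E4.5 and -2.0 at E3.5, with 9 of 17 higher and 3 lower in both scalings, beside 9.16% and 18.2% of all genes. Genes low in 3 of the 4 groups could pass the filter of this contrast through the remaining one, so these counts are descriptions.

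**Figure D5:**
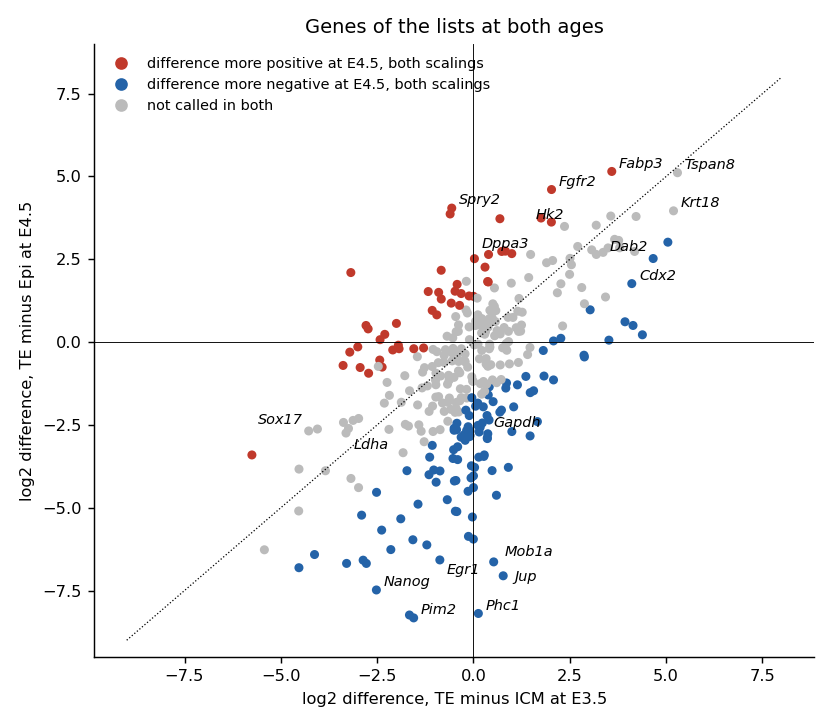
TE minus Epi difference at E4.5 against TE minus ICM difference at E3.5 for the genes of the lists, both on the log2(TPM + 1) scale. Points are genes, coloured where the difference between ages was called higher or lower in both scalings, and the dotted line marks equal differences. Phc1 and Jup lie far below the line.

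Several genes with the largest differences between ages were close in TE and ICM at E3.5, and Jup was on the other side. Phc1 was low in both lineages then, at 1.73, 3.68 and 2.42 TPM in TE and 3.02, 1.79 and 1.99 TPM in ICM. The difference between ages was -8.32 ± 0.40 (adjusted p of 7.01e-09). Jup stood at 26, 24 and 28.6 TPM in TE and 13.5, 18.3 and 13.4 TPM in ICM at E3.5, a difference of 0.77 without overlap, whereas it stood at 1.35 to 2.31 TPM in TE and 274 to 460.1 TPM in Epi at E4.5. Septin1 was at 6.65, 4.34 and 8.73 TPM in TE and 4.29, 3.37 and 5.54 TPM in ICM. Arglu1 was abundant in both lineages at E3.5, at 146, 143 and 124 TPM in TE and 153, 149 and 146 TPM in ICM, while at E4.5 it stood at 192, 237 and 164 TPM in TE and 3.15, 2.77 and 1.47 TPM in Epi. In PrE at E4.5 Arglu1 was low too, at 4.48, 0.298 and 4.45 TPM. The Rn45s share was high in both Epi and PrE libraries at E4.5, and its part in the Arglu1 result was not tested.

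Transcript length moved with the comparison. Genes higher in TE in both scalings had a median transcript length of 931 bases, those lower in both 1416.5 bases, and all genes tested 1205 bases. Over 5 groups of nearly equal size, from the shortest to the longest transcripts, the median difference was -0.44, -0.74, -0.73, -1.04 and -0.94, and the share lower in both scalings was 18.7%, 23.6%, 20.7%, 27.4% and 27.4%. The share higher in both scalings was 18.1%, 12%, 12.5%, 9.14% and 7.81% in the same order, falling by more from the shortest to the longest group. The part of length in the counts was not tested.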

How the data were processed

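RNA was measured by Smart-seq2 in 67 libraries of 23 groups, and 6 libraries (TE and Epi at E4.5, 3 each) entered the comparison. The authors deposited 1 table of TPM for 25006 genes. The submitters' processing notes name the mm10 build and, as tools, StringTie 2.2.1, HISAT2 2.2.1 and Cufflinks. What each tool did, which annotation was counted and whether strand was used are not given in the sources used here. TPM keeps no read counts, so depth and counting error are unknown. Filtering, strand and the split of reads among near-identical copies could change single values. A length-scaled share also falls for one gene when others rise.

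Rn45s was dropped and each column rescaled to a sum of 1000000, leaving 25005 genes. Genes that reached 1 TPM in 3 or more libraries were tested on log2(TPM + 1) with limma 3.58.1 (empirical Bayes with trend, R 4.3.3), which gave all adjusted p-values (Benjamini-Hochberg over all genes tested). Calls required an adjusted p under 0.05 together with a log2 difference of 1 or more in size, and differences are given ± SE. Differences on this scale understate the change of low genes. The change between E3.5 and E4.5 was an interaction contrast over 12 libraries. The procedure was also run on simulated data, with no shift between the groups and with changes only in genes well above the filter. That run does not bear on the choice of scaling or on genes near 0. Tables were made with Python 3.11.15, pandas 2.3.3 and numpy 2.4.6, and figures with matplotlib 3.10.9. Gene positions are from the GENCODE annotation of GRCm38.

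The members and the 31 gene lists (412 of 415 symbols in the table) were chosen with earlier results of these data known, and none of these counts is independent support. Genes were named by rule. They are the lineage genes, up to 3 called genes per list and direction with the largest difference, and up to 2 uncalled ones of the highest level. Added to them are the 12 largest non-overlapping differences per direction and the 6 largest differences between ages per direction, without predicted genes. Some genes that the rule or the lists name are not reported here. Zfp42, Prl3d1 and the other genes outside the rule were named after their values were seen. Same-numbered TE and Epi libraries did not deviate together (correlations of -0.017, -0.021 and 0.025), so numbers were not treated as pairs. Alternatives were other scalings, filters, pseudocounts, weights, a fit of all 67 libraries, a replicate block and leaving out each library. Fits restricted to genes above 0 in all libraries, and the list counts without Epi replicate 1, were added after seeing the data.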

Additional observations from a re-analysis of the deposited data

Results flagged for a closer look

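For 12 genes the TE minus Epi difference at E4.5 and the TE minus ICM difference at E3.5 differed the most, 6 in each direction, by limma's interaction test over 12 libraries, which tests that difference itself. They were picked from 1114 higher and 3640 lower calls for their size. The values that follow are the E4.5 difference less the E3.5 difference on the log2(TPM + 1) scale ± SE.

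Gsta2, a glutathione transferase, had the largest positive value, 6.31 ± 0.37 (adjusted p of 3.51e-08). It stood at 535, 546 and 496 TPM in TE and 22, 26.1 and 17.3 TPM in Epi at E4.5, and at 2.27, 1.01 and 2.5 TPM in TE and 7.64, 12.5 and 6.68 TPM in ICM at E3.5. TE was thus above Epi at E4.5 and below ICM at E3.5 in every library.

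Psmb9, an immunoproteasome subunit, had a value of 6.24 ± 0.65, with 11.4, 7.6 and 6.18 TPM in TE and 1.03, 0 and 1.71 TPM in Epi at E4.5. At E3.5 it stood at 0.488, 4.03 and 1.77 TPM in TE and 37.9, 36.7 and 42.7 TPM in ICM. Arglu1, described above, had a value of 5.98 ± 0.27. Stfa1, a cysteine protease inhibitor, had a value of 5.56 ± 0.64, with 8.8, 18.3 and 7.54 TPM in TE and 1.79, 0 and 0 TPM in Epi at E4.5. At E3.5 it stood at 7.55, 3.32 and 4.13 TPM in TE and 36.9, 33.9 and 25.2 TPM in ICM.

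Glrx5 had a value of 5.49 ± 0.68 and stood at 273, 219 and 234 TPM in TE and 220.4, 219 and 239.8 TPM in ICM at E3.5. Hrct1 had a fitted value of 5.32 ± 0.45, which is no bound, since it was listed at 0 in all 3 Epi libraries at E4.5. It stood at 11.3, 11.4 and 16.4 TPM in TE at that age, and at 0.48, 0 and 0 TPM in TE and 3.44, 1.61 and 2.09 TPM in ICM at E3.5.

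Phc1 had the largest negative value, -8.32 ± 0.40 (adjusted p of 7.01e-09), followed by Septin1 at -8.28 ± 0.35. Jup had a value of -7.83 ± 0.33. At E3.5 all 3 stood at or below 28.6 TPM in every TE and ICM library. Tcea3, a transcription elongation factor, had a value of -7.88 ± 0.46, with 2.64, 1.65 and 1.19 TPM in TE and 160.2, 217 and 170.0 TPM in Epi at E4.5. At E3.5 it stood at 12.3, 11.5 and 12 TPM in TE and 4.95, 1.33 and 2.43 TPM in ICM.

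The histone genes H3c15 and H3c14, which cannot be separated with certainty, had values of -7.95 ± 0.39 for H3c15 and -7.58 ± 0.42 for H3c14. H3c15 stood at 16.1, 16.1 and 18 TPM in TE and 15.8, 15.7 and 12.1 TPM in ICM at E3.5. The Rn45s share, which likewise measures RNA without a poly(A) tail, was high in Epi at E4.5 and low in the other 3 groups, and its part was not tested.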

How the results depend on the processing

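Scaling changed the balance of calls. After median-ratio scaling 2713 genes were higher and 2429 lower in TE, and after quantile normalization 2603 and 2499, against 1248 and 4203 on the TPM scale. For the difference between ages these scalings gave 2297 higher and 2197 lower, and 2340 and 2107, against 1114 and 3640. The median shift of -0.78 is what these scalings remove. Every other setting run stayed within 1.5 times of these counts. At E4.5 they ranged from 909 (genes above 0 in all 6 libraries) to 1614 (Rn45s kept) higher, and from 3482 (Rn45s kept) to 4766 (no minimum difference) lower. Leaving out each library in turn gave 876 to 1408 higher and 3218 to 3826 lower genes, and 973 to 1385 higher and 3270 to 4274 lower differences between ages. In all 6 fits at E4.5 that leave out a library, 789 higher and 2670 lower calls held. With 2 Epi libraries left, genes under 1 TPM in TE cannot pass the filter. Replicate numbers did not pair the libraries, and a replicate block gave 1227 higher and 4162 lower genes, and 1064 and 3546 between ages. Among named genes, it changed only the call of Tfap2c (adjusted p of 0.012 against 0.0682). No call of a named gene reversed its direction, although the difference of Cldn4, which was not called, changed sign after median-ratio scaling. Of the named genes tested, median-ratio scaling added 20 calls and ended 9, and the 12 differences between ages kept their calls in each setting that tested them. TPM gives no depth, so a value listed at 0 is not shown to be absence.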
